A study of Mus musculus with 20 samples.

Results

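The 44 genes described here encode the receptors for glutamate and the proteins that hold them in the postsynaptic membrane, measured in a small forebrain region of control and chronically stressed mice. They were taken by symbol from a table of 12988 genes: 24 receptor subunit genes, 1 antisense RNA at a receptor gene, 2 transporters, 4 auxiliary subunits and 13 scaffold genes. The rule used gene symbols only, but it was chosen with earlier results of these data known, as were the lists of other genes used below. Of the subunit genes of mouse, Grin3b and Grm6 were not analysed here.

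Glutamate is the main excitatory transmitter of the brain. AMPA receptors carry the fast current, NMDA receptors admit calcium and gate plasticity, kainate receptors act on both sides of the synapse, and metabotropic receptors signal through G proteins. In the postsynaptic density, Dlg proteins bind receptor tails, Dlgap proteins link Dlg to Shank, and Homer links Shank to group I metabotropic receptors. The bed nucleus of the stria terminalis consists mainly of GABA neurons, which receive glutamate input from cortex, amygdala and hippocampus and are studied for their part in anxiety and stress.

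Tissue came from the anterodorsal bed nucleus (adBNST) of male and female mice that were 7 to 9 weeks old at the start. Stressed mice went through chronic variable mild stress (CVMS), a 6-week schedule of changing minor stressors, and were taken 1 hour after the last one, wet bedding; control mice were kept under control conditions. Each of the 4 groups (controls and stressed mice of either sex) held 15 mice, pooled by 3 into 5 libraries, so each library averages over animals. Mice of every group were anesthetized with ketamine, a blocker of the NMDA receptor channel, before decapitation. The strain is not given in the sources used here.

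Female control 4 had the lowest library total, 2707881 counts, and male stressed 4 the highest, 33595388, and the 44 genes held between 0.786% and 0.951% of them. The lowest count of any of the 44 in a library was 6, for Slc17a7 in female control 4. Xist and Ddx3y matched the labelled sex in all 20 libraries. The GABA neuron genes Gad1, Gad2 and Slc32a1 were abundant in every library, with lowest values of 628, 983 and 265 CPM (counts per 1000000). Each of the 40 pairs of libraries within groups differed by more than sampling noise (chi-square over degrees of freedom from 1.88 to 39.4).

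**Figure D1:**
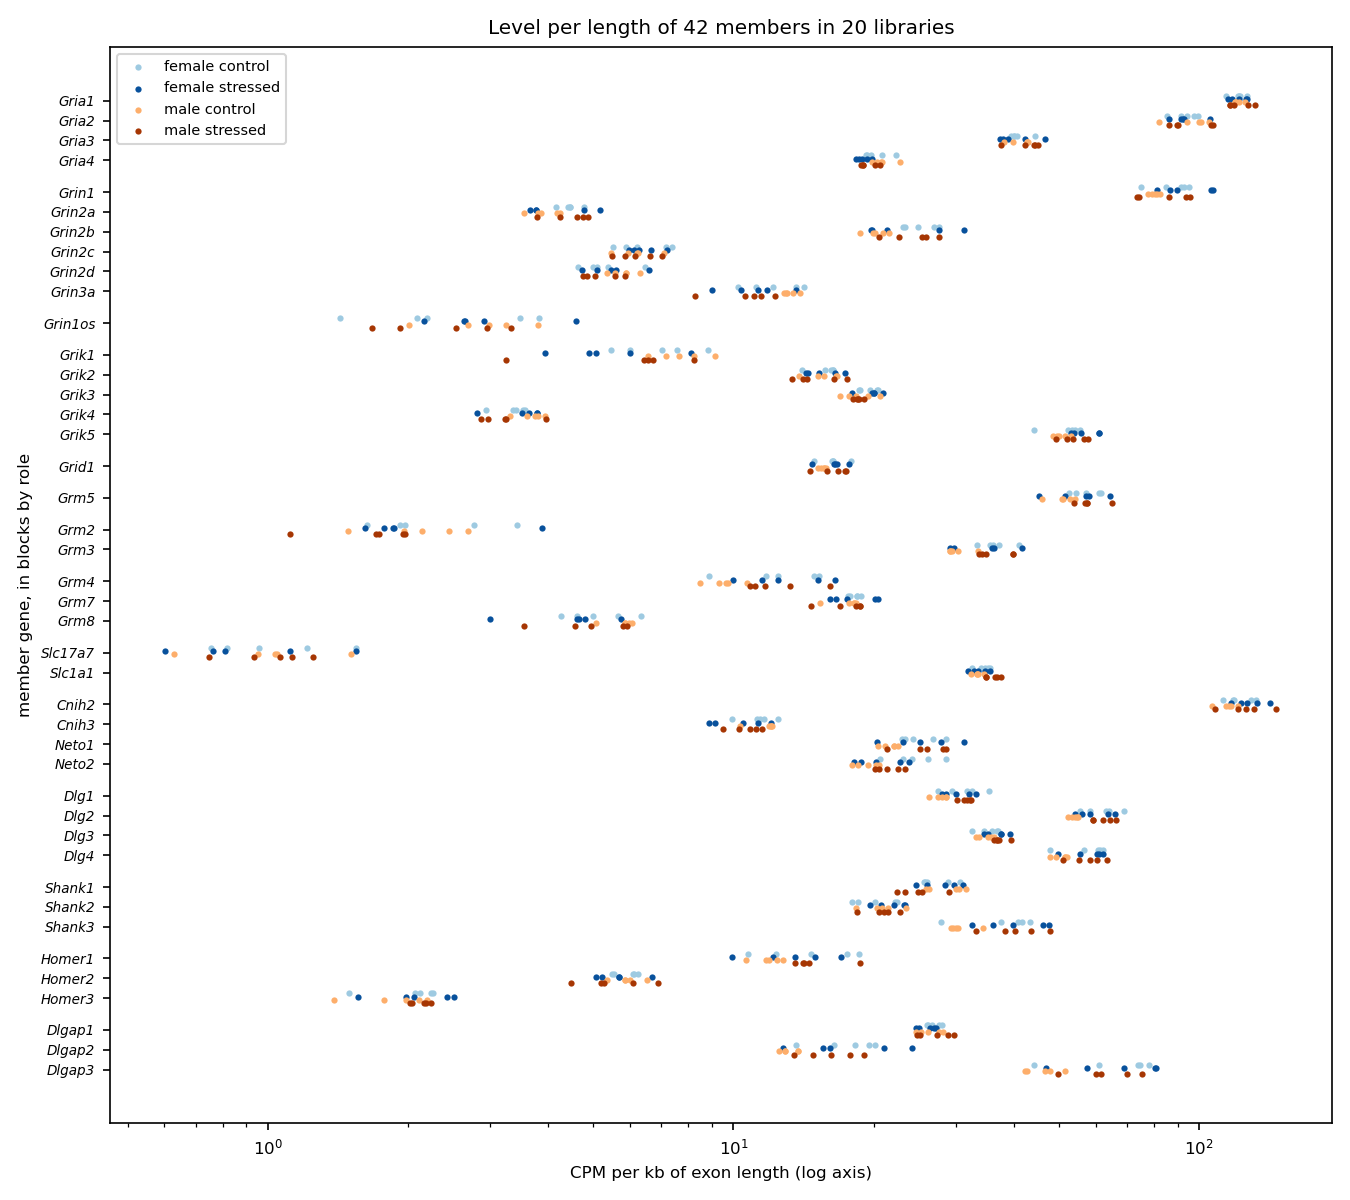
Level of 42 of the 44 genes in CPM per kilobase of exon (log axis), 1 point per library, coloured by group, in blocks by role. Cnih2 and Gria1 lie highest, above 100 in every library, and Slc17a7 lowest, with the 4 groups overlapping for most genes.

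Levels per length spanned a wide range. CPM per kilobase of exon (CPM per kb) allows genes of different length to be compared; each value is the mean with its SD (n = 20 libraries). The highest were Cnih2 (123 ± 10.4 CPM per kb), a cornichon protein that slows the closing of AMPA receptors, and Gria1 (122 ± 4.58 CPM per kb), the GluA1 subunit, which did not differ beyond their spread. Gria2, the subunit that makes AMPA receptors impermeable to calcium, followed at 94.9 ± 7.55 CPM per kb, and Grin1, the subunit that every NMDA receptor needs, at 86.7 ± 9.69 CPM per kb, again with overlapping ranges. The median of the 44 was 19.5 CPM per kb, against 9.84 over the 12818 genes with a length. Slc17a7, the vesicular glutamate transporter of cortical and hippocampal neurons, was lowest at 1.02 ± 0.285 CPM per kb, below Homer3 (2.04 ± 0.291 CPM per kb) and Grm2 (2.10 ± 0.660 CPM per kb).

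Most families were led by 1 or 2 genes. Of the summed level per length of the AMPA subunits, Gria1 held 43.8% ± 1.69, Gria2 34.1% ± 1.66, Gria3 14.9% ± 0.554 and Gria4 7.18% ± 0.467 (SD, n = 20). Among the GluN2 subunits, which set the kinetics of NMDA receptors, Grin2b held 59.2% ± 3.09. Grin2c followed with a mean of 16.07% and Grin2d with 13.97%, and Grin2a held the least, 10.8% ± 0.568. The Grin2b share was 60.8% ± 2.81 in female controls, 59.3% ± 3.75 in stressed females, 56.0% ± 1.35 in male controls and 60.5% ± 1.83 in stressed males (n = 5 each). The highest male control share (57.1997%) lay just under the lowest female control share (57.2017%) and under all stressed males, while the female groups overlapped. The mean Grin2d share went the other way, at 16.05% in male controls, 12.85% in female controls and 13.02% in stressed males. In the Dlg family the Dlg3 share was higher in male controls (20.48% to 21.29%) than in female controls (18.28% to 19.83%), without overlap. Group differences in shares were not tested. Among the kainate subunits Grik5, which needs a partner subunit to form a channel, held 54.3% ± 2.52. Grm5 held 40.2% ± 1.37 and Grm3 25.0% ± 1.47 of the metabotropic receptors. Dlgap3 held 58.0% ± 4.03 of its family, Shank3 43.5% ± 4.78 and Homer1 63.5% ± 4.70. These shares depend on the length used: with the longest transcript in place of all exons, chosen after seeing the data, Dlg4 moved from 55.9 to 106 CPM per kb, above Dlg2 (67.7), and Homer1 from 13.8 to 27.8.

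The promoter windows of 4 genes are shown because their levels followed or opposed each other across libraries, as described further on, or because they came nearest to a call (Neto2). RefSeq (GRCm38.p6, the assembly that mm10 names) lists windows from 250 bases before to 50 after a start for 29 of the 44 genes, and the outermost listed window of each is printed 5′ to 3′ on its own strand. Capitals mark the GC box GGGCGG, read on both strands, so that it also appears as CCGCCC.
Shank3, chr15:89499358-89499657, plus strand: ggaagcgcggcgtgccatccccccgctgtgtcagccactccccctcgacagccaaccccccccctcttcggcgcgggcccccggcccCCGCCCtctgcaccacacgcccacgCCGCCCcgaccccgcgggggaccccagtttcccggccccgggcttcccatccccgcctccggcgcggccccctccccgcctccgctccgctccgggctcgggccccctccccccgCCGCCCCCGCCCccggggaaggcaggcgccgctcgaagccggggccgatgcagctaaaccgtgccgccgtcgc
Dlgap3, chr4:127172630-127172929, plus strand: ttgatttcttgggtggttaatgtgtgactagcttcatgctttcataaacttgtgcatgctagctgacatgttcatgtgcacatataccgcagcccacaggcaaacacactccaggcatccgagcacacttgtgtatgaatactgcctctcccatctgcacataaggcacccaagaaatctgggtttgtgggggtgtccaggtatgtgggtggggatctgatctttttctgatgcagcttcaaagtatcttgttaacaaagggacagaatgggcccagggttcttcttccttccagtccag
Grm8, chr6:28135097-28135396, minus strand: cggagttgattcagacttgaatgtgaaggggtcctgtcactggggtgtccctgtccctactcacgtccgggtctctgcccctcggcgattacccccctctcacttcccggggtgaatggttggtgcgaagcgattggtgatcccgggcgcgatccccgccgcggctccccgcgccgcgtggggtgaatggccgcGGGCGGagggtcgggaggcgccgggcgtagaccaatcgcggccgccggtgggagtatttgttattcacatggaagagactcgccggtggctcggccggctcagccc
Neto2, chr8:85700875-85701174, minus strand: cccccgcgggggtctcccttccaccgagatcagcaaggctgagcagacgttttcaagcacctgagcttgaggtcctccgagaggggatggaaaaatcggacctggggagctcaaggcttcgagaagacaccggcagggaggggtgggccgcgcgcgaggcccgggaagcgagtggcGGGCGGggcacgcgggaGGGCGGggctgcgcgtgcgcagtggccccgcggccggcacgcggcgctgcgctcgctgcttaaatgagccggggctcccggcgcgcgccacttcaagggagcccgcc
The Shank3 window is 81% G and C with 4 GC boxes, of which the pair closest to the start adjoin, and the Neto2 window holds 2 and the Grm8 window 1. The Dlgap3 window holds 0 and is 47.7% G and C. Of the 44 windows listed for these genes, 22 (50%) hold a GC box, against 35.7% of all 32851 windows of that length. The E-box CACGTG was found in 5 (11.4%, against 7.15%), the TATA box TATAAA in 3 (6.82%, against 13.6%) and the cyclic AMP response element TGACGTCA in 0 (against 1.79%). The Shank3 and Dlgap3 windows lie within the genes as RefSeq bounds them, not at their first base. These are letter matches, and their use in this tissue was not measured.

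The effects of stress and of sex were compared in 5 contrasts fitted over all 12988 genes. None of the 44 genes was called at an adjusted p under 0.05 in any of them by edgeR's quasi-likelihood test. Over the whole table that call was made for 0% of genes for stress in females and 0.0077% for stress in males, 0.747% when control males were set against control females, 0.077% for sex in stressed mice and 0% for the interaction of sex and stress. The lowest adjusted p of the 44 in these contrasts was 0.597, 0.105, 0.0568, 0.649 and 0.299. DESeq2 called 0, 2, 2, 0 and 0 of the 44, and 0.0077%, 1.84%, 1.91%, 0.108% and 0.169% of all genes. Genes without a call are described below by their values.

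**Figure D2:**
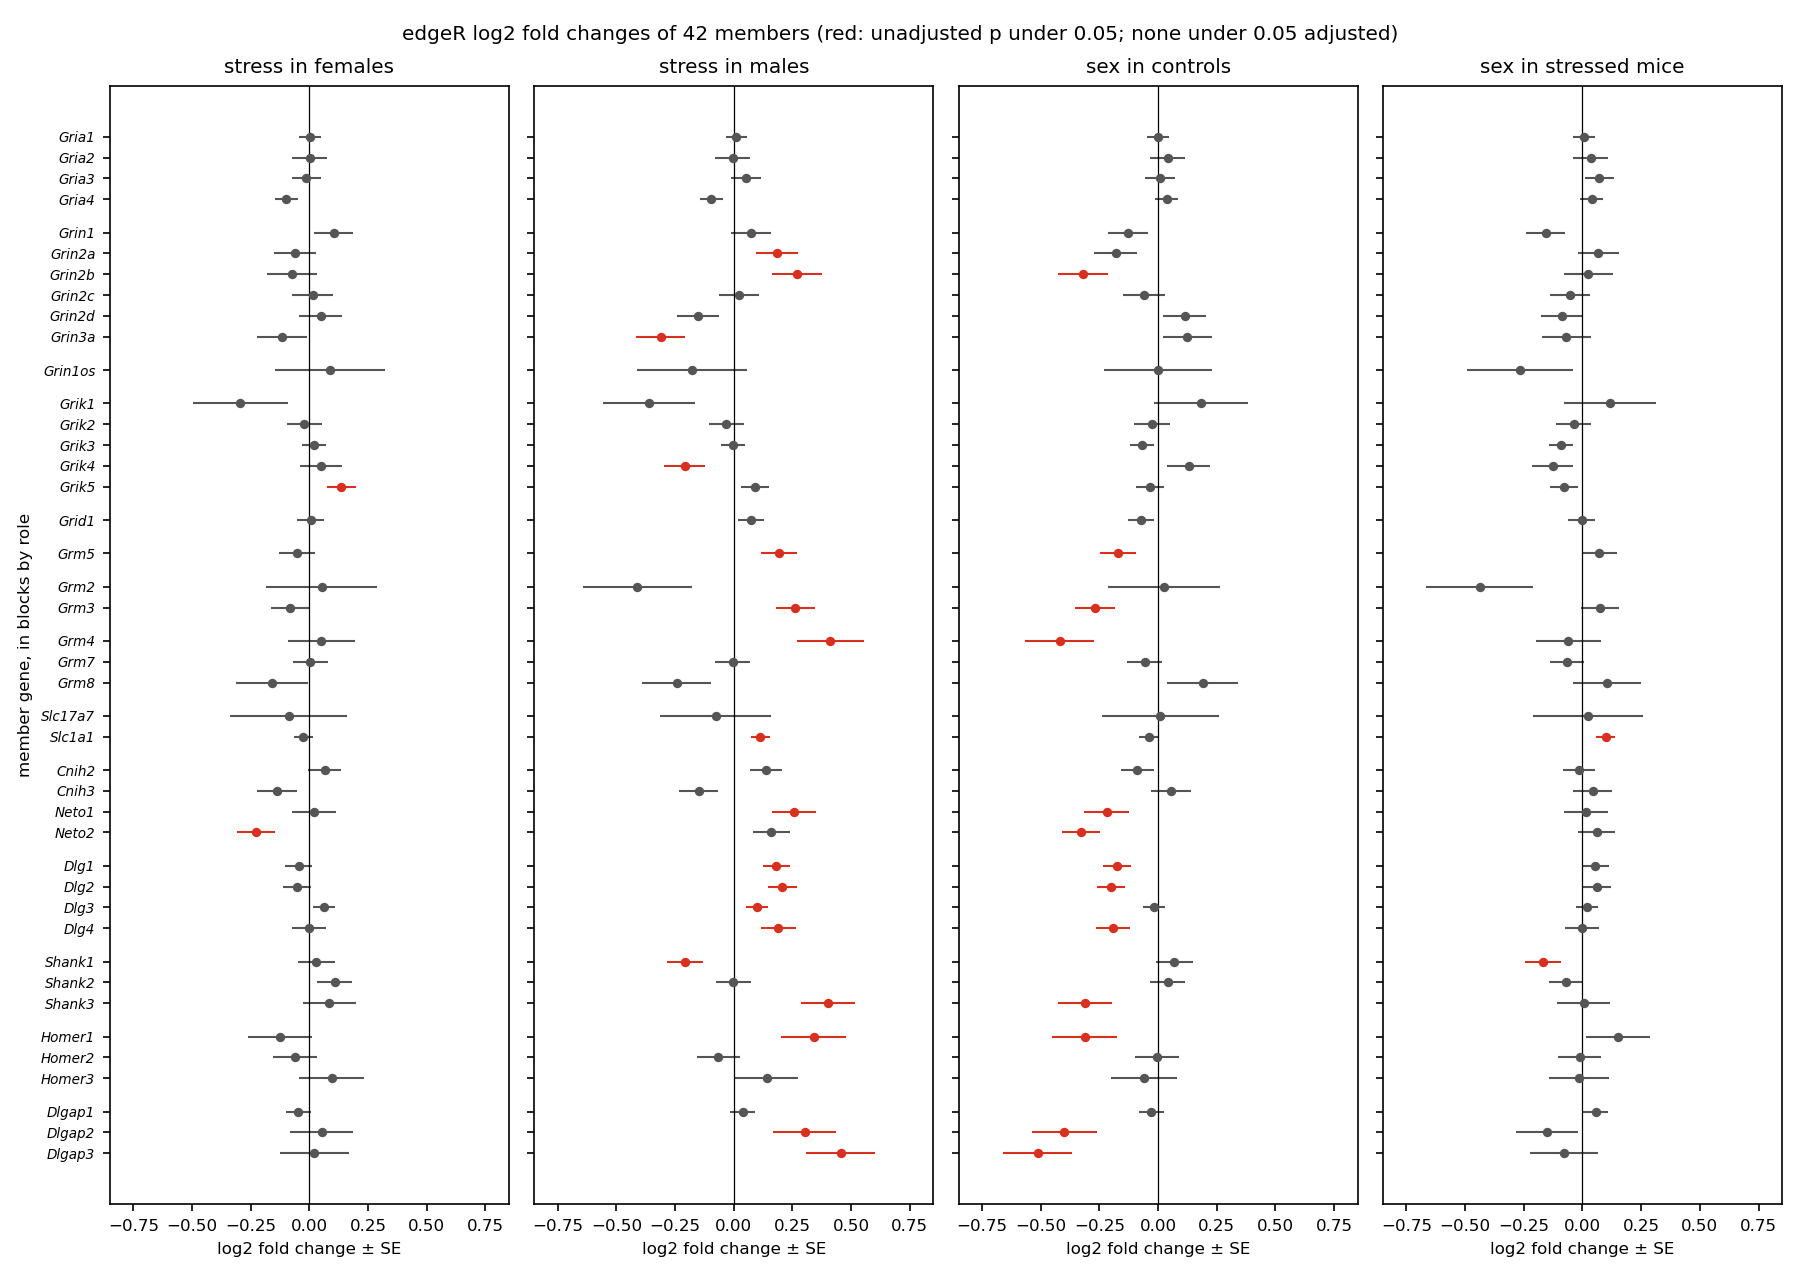
Log2 fold change with its standard error for 42 of the 44 genes in 4 contrasts (sex contrasts are male minus female), with genes at an unadjusted p under 0.05 in red. Red points lie mostly above 0 for stress in males and all below 0 for sex in controls, 2 contrasts that share the male control libraries, and few are seen in the other 2.

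Unadjusted counts differed between the contrasts. An unadjusted p under 0.05 was found for 3 of the 44 genes for stress in females (1 higher, 2 lower), where 7.51% of all genes had one (3.69% higher, 3.83% lower), and for 2 for sex in stressed mice (1 higher, 1 lower), against 7.06% of all genes (3.71% higher, 3.35% lower). For stress in males the count was 18 (15.5% of all genes), 15 of them higher and 3 lower, where 8.71% of all genes were so marked higher and 6.76% lower. For sex in controls it was 15 (15.3% of all genes), all lower in males, where 8.17% of all genes were so marked lower and 7.08% higher. For the interaction it was 11 (10.4% of all genes), 10 of them higher (5.34% of all genes) and 1 lower (5.03%). Groups that did not overlap were found for 0 of the 44 genes for stress in females (1.22% of all genes) and 7 for stress in males (4.3%). Between the sexes they were found for 5 in controls (3.97%) and 0 in stressed mice (1.27%). The median log2 fold change of the 44 was 0.05 for stress in males, against -0.01 over all genes, and -0.06 for sex in controls, against 0.0002. These 2 contrasts share the 5 male control libraries, so they are not independent of each other. Markers of other cell types also differed between the control groups. The 10 endothelial markers, all in the table, summed to between 276 and 308 CPM in female controls and between 248 and 282 CPM in male controls. Their score (mean log2 CPM, centred on 0) did not overlap, at 0.0118 to 0.161 in the females and -0.233 to -0.0282 in the males. The 10 microglial markers, all in the table, had mean scores of 0.102 and -0.0728, with overlap. The part of either in the sex differences was not tested.

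Neto2 came closest to a call. It encodes a membrane protein that binds kainate receptors and slows their desensitization (chr8:85636718-85700952, GRCm38.p6). In females, replicates 1 to 5 measured 143, 122, 137, 169 and 155 CPM in controls and 119.6, 107, 111, 141 and 135 CPM in stressed mice. Neto2 in male controls measured 119.9, 109.6, 115, 122 and 106 CPM and in stressed males 119, 126, 138, 122 and 134 CPM. Every female control lay above every male control, with 121.9 CPM in female control 2 the lowest of the former and 121.6 CPM in male control 4 the highest of the latter. In controls the male level was lower (edgeR log2 fold change -0.33, SE 0.08, adjusted p 0.0568), at 114 ± 6.56 against 145 ± 17.9 CPM (SD, n = 5). Groups not overlapping in this direction were found for 5 of the 44 genes, against 2.02% of all genes. The stress log2 fold change was -0.23 in females (SE 0.08, edgeR adjusted p 0.597) and 0.16 in males (SE 0.08, edgeR adjusted p 0.341). The difference between these, the interaction, was 0.39 (SE 0.11, edgeR adjusted p 0.299), the smallest p of the 44 in that contrast. DESeq2 called the sex difference (adjusted p 0.0153), as did edgeR on the control groups alone (0.0293), with the oligodendrocyte marker score as a covariate (0.0372), without female control 2 (0.0268) and without female control 3 (0.0464). With the striatal marker score as a covariate it was -0.18 (edgeR adjusted p 0.337).

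**Figure D3:**
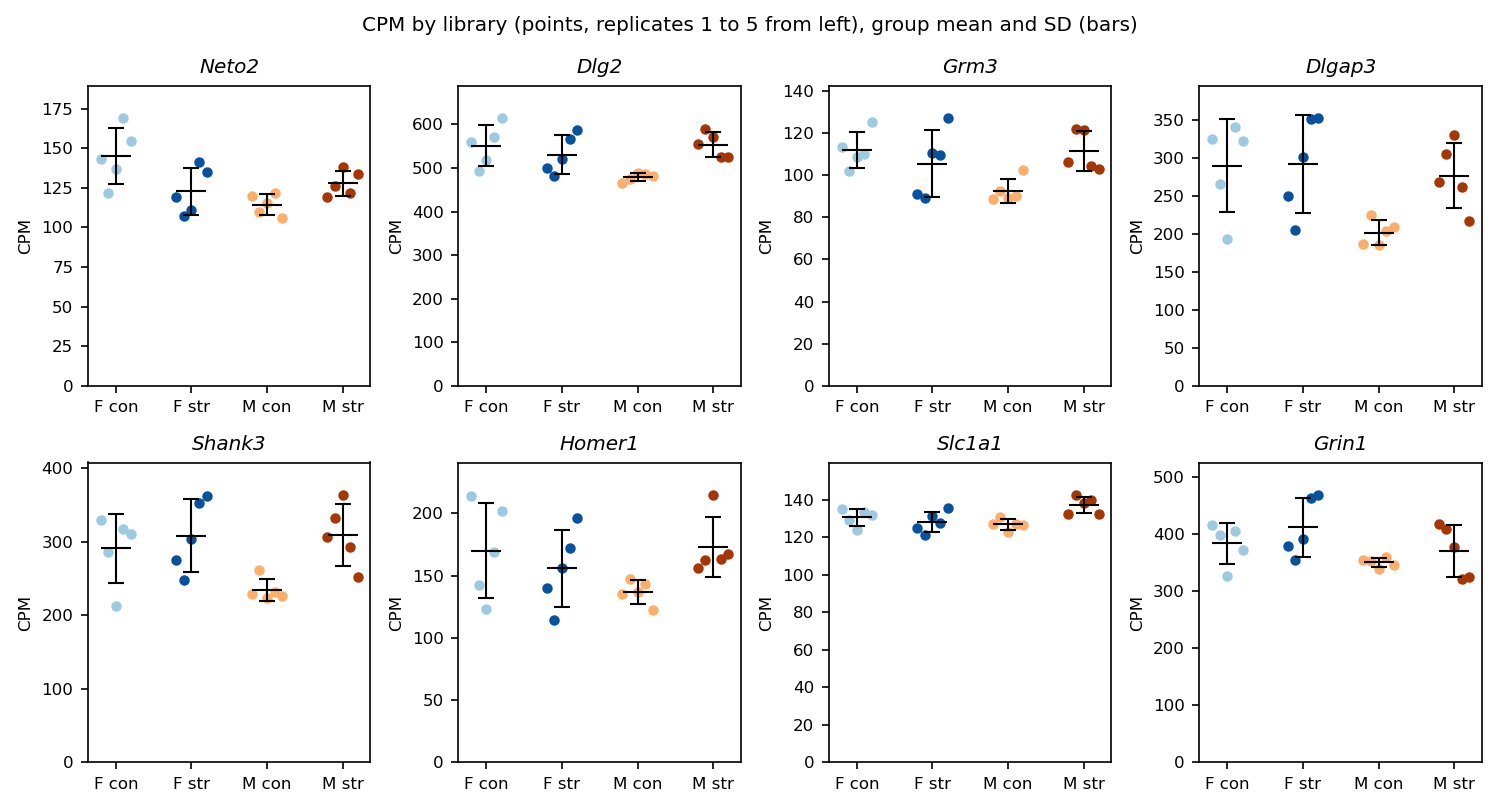
CPM of 8 genes by group (F and M, female and male; con and str, control and stressed), with 1 point per library in replicate order and bars for mean and SD (n = 5). For all 8 genes the male controls have the lowest mean of the 4 groups, for Slc1a1 by little (127 CPM, against 128 CPM in stressed females). This does not hold for every gene described. Genes not shown here, such as Shank1, Grin3a, Grik1, Grik4, Grm8, Gria4 and Cnih3, have their highest mean in male controls.

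The other auxiliary genes held no call either. Neto1, the relative of Neto2 that acts on kainate receptors, averaged 211 ± 20.1 CPM in female controls, 213 ± 35.3 in stressed females, 181 ± 7.42 in male controls and 216 ± 23.8 in stressed males, and its control groups did not overlap. Cnih2 in female controls measured 178, 174, 151, 160.0 and 159 CPM and in stressed females 178, 157, 191, 170.3 and 165 CPM. In male controls it measured 154, 156, 144, 157 and 163 CPM and in stressed males 169, 163, 176, 197 and 146 CPM. The 4 groups of Cnih2 overlapped, with log2 fold changes of 0.06 and 0.14 for stress in females and males. For Cnih3, its less abundant relative, they were -0.14 and -0.15.

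AMPA receptor subunit genes showed small differences. Gria1 (chr11:57011571-57330244) measured 706, 732, 662, 699.9 and 708 CPM in female controls and 679, 667, 705, 734 and 730.0 CPM in stressed females. Male controls measured 726, 695, 705, 690.2 and 689.9 CPM of Gria1, and stressed males 761, 736, 675, 674 and 688 CPM. All 4 groups lay on one level, and its log2 fold changes for stress were 0.00 in females and 0.01 in males, each with an SE of 0.05. Over Gria1 to Gria4 the stress log2 fold changes ran from -0.10 to 0.003 in females and from -0.10 to 0.05 in males, with Gria4 the lowest in both, and 0 of the 4 had an unadjusted p under 0.05 for stress in either sex or for sex in controls. Gria3 and Dlg3 are the 2 genes on the X chromosome, and their male minus female differences in controls were 0.01 (SE 0.06) and -0.02 (SE 0.05).

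NMDA receptor subunits were mixed. Grin1 (chr2:25291177-25319187) measured 416, 399, 327, 405 and 371 CPM in female controls and 379, 354, 392, 463 and 469 CPM in stressed females. In males Grin1 measured 354, 352, 339, 360.3 and 346 CPM in controls and 417, 409, 377, 321 and 324 CPM in stressed mice. Stressed males overlapped stressed females and spread widely, from 321 to 417 CPM, and the male level was lower by an amount that did not pass (edgeR log2 fold change -0.16, SE 0.08, adjusted p 0.727). Grin2b, the GluN2B subunit, had means of 625 ± 50.4 CPM in female controls against 502 ± 27.3 CPM in the male ones, which did not overlap (-0.32, edgeR adjusted p 0.152), and 605 ± 69.5 CPM in stressed males (0.27 with stress, edgeR adjusted p 0.215). Grin3a, whose GluN3A subunit lowers calcium entry, went the other way: the mean was 99.3 ± 3.27 CPM in male controls, against 80.4 ± 11.4 CPM after stress, with no overlap (-0.31, edgeR adjusted p 0.148). It was the 1 gene of the 44 whose stressed males all lay below the male controls, against 1.16% of all genes.

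Grin1os, an RNA transcribed from the opposite strand within Grin1, was counted at 10.1, 11.1, 6.34, 4.14 and 6.04 CPM in female controls and 8.41, 7.63, 6.27, 7.65 and 13.2 CPM in stressed females. Males had 11.0, 8.61, 9.40, 7.78 and 5.82 CPM in controls and 7.32, 4.84, 9.60, 5.55 and 8.56 CPM after stress. Its 4 groups overlapped. The exons of the 2 genes overlap over 1307 bases (45.2% of Grin1os), the kit was stranded but the strand setting of the counting is not given, and so reads of Grin1 and Grin1os may not have been told apart. Exons of Slc1a1 and Homer3 likewise overlap an opposite-strand gene over 32% and 30.7% of their length.

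Kainate and delta receptor genes held no call. Grik5 (chr7:25009849-25075694) measured 204, 208, 166, 200.3 and 197 CPM in female controls and 209.9, 199.6, 202, 229.7 and 229 CPM in stressed females. Grik5 levels were 194, 199.8, 183, 189 and 186 CPM in male controls, and 202, 213, 218, 196 and 185 CPM were found after stress. In females 3 of 5 stressed libraries lay above every control (edgeR log2 fold change 0.14, SE 0.06, adjusted p 0.649). Grik1, the GluK1 subunit, spread most of the family within groups (within-group SD of log2 CPM 0.358, higher than 97.3% of all genes), with stress log2 fold changes of -0.29 (SE 0.20) in females and -0.36 (SE 0.19) in males.

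Grid1, a delta receptor (chr14:34820003-35583387), measured 93.8, 93.6, 85.3, 93.0 and 102 CPM in female controls and 94.2, 84.3, 94.3, 101 and 95.3 CPM in stressed females. In males Grid1 was at 86.9, 88.0, 89.4, 89.6 and 90.4 CPM in controls and 99.7, 99.4, 95.7, 90.9 and 83.5 CPM in stressed mice, and all groups overlapped.

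Group I metabotropic receptors act through Gq and calcium release. Grm5 (chr7:87583981-88135063) measured 496, 465, 429, 442 and 502 CPM in female controls and 420.0, 368, 465, 473 and 525 CPM in stressed females. Grm5 in males measured 416, 429.9, 439.8, 414 and 375 CPM in controls and 467, 462, 529.8, 439.6 and 469 CPM after stress. In males 4 of 5 stressed libraries exceeded every control, and stressed replicate 4, at 439.6 CPM, lay just under control 3, at 439.8 CPM (0.19, SE 0.08, edgeR adjusted p 0.217).

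Group II and III receptors lower cyclic AMP and often sit on presynaptic endings. Grm3 (chr5:9485236-9725352), which astrocytes also express, measured 113, 102, 108, 109.9 and 125 CPM in female controls and 91.0, 88.9, 111, 109.6 and 127 CPM in stressed females. Male Grm3 values were 88.8, 92.6, 89.0, 89.9 and 102 CPM in controls and 106, 122, 121, 104 and 103 CPM in stressed mice. All 5 stressed males lay above the controls, the nearest being 102.9 CPM in stressed replicate 5 and 102.3 CPM in control 5 (edgeR log2 fold change 0.26, SE 0.08, adjusted p 0.129). Groups not overlapping in this direction were found for 6 of the 44 genes (Dlg1, Dlg2, Grm3, Grm4, Homer1 and Slc1a1), against 3.13% of all genes. The astrocyte marker list, 10 of 10 genes, summed to 1628 to 1808 CPM in male controls and 1564 to 1738 CPM in stressed males, which overlap. In controls the sex difference was -0.27 (edgeR adjusted p 0.124) and the interaction 0.34 (edgeR adjusted p 0.348).

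Grm2, the close relative of Grm3, was scarce, at 7.70, 9.28, 13.1, 16.2 and 9.07 CPM in female controls and 8.77, 18.3, 8.39, 8.81 and 7.61 CPM in stressed females. In males it measured 9.26, 7.00, 10.1, 12.7 and 11.5 CPM in controls and 9.18, 8.19, 5.27, 9.27 and 8.04 CPM in stressed mice. Stressed female 2 stood apart at 18.3 CPM, and that library also had the highest score of thalamic and septal excitatory markers of all 20 (0.587 above the mean on the log2 scale). Those markers, 8 of 8 in the table, had sums between 157 and 279 CPM in stressed females and between 174 and 237 CPM in their controls, against 153 to 186 CPM in males after stress and 170.3 to 195 CPM in male controls; the part of such cells in the Grm2 value was not tested. Stressed female 2 also had the lowest striatal marker score of the stressed females (-0.492), and its part was not tested either. The male minus female log2 fold change of Grm2 in stressed mice was -0.44 (SE 0.23, edgeR adjusted p 0.719), and -0.08 without stressed female 2. Grm7, the most abundant group III receptor, measured 80.6, 79.1, 75.5, 79.1 and 76.3 CPM in female controls and 69.1, 75.4, 71.2, 87.8 and 86.5 CPM in stressed females. Grm7 had 77.8, 76.0, 78.7, 77.8 and 66.0 CPM in male controls, and 80.1, 72.7, 78.7, 62.9 and 80.2 CPM were found after stress, with all groups overlapping. Grm4, by contrast, had a mean of 53.4 ± 4.53 CPM in male controls, against 70.3 ± 12.1 CPM after stress, with no overlap (0.41, edgeR adjusted p 0.163), and Grm8 22.2 ± 1.54 and 19.1 ± 3.72 CPM (-0.24, SE 0.15).

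Slc1a1, the neuronal glutamate uptake transporter EAAC1 (chr19:28835135-28913960), had the smallest spread within groups of the 44 (SD of log2 CPM 0.0489, percentile 0.654 of all genes). Female levels were 135, 129, 124, 134 and 132 CPM in controls and 125, 121, 132, 128 and 135 CPM in stressed mice. Slc1a1 in males measured 127, 131, 123, 127 and 127 CPM in controls and 133, 143, 138, 139.8 and 133 CPM in stressed mice. Stressed males were all above male controls, by a small amount (edgeR log2 fold change 0.11, SE 0.04, adjusted p 0.176). They overlapped the stressed females, with a male minus female log2 fold change of 0.10 (SE 0.04, edgeR adjusted p 0.649), the smallest p of the 44 in that contrast. Slc17a7 averaged between 2.89 ± 1.11 CPM in stressed females and 3.16 ± 0.968 CPM in female controls, with either male group between them.

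The Dlg scaffolds had differences of one sign in males. Dlg2 encodes PSD-93, a scaffold that binds NMDA receptor tails (chr7:90476188-92449246), and measured 560.5, 494, 518, 570.0 and 614 CPM in female controls and 499, 481, 519.5, 567 and 586 CPM in stressed females. Male controls had 465, 475, 489, 486 and 482 CPM of Dlg2 and stressed males 554, 590.1, 572, 525 and 526 CPM. All stressed males lay above the male controls (edgeR log2 fold change 0.21, SE 0.06, adjusted p 0.11) and all male controls below the female controls (edgeR log2 fold change -0.20, SE 0.06, adjusted p 0.118). In females the stress log2 fold change was -0.05, and the interaction was 0.26 (SE 0.09, edgeR adjusted p 0.348). DESeq2 called the male stress difference (adjusted p 0.0477), as did edgeR on the male groups alone (0.0422).

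Dlg1, which encodes SAP97, a scaffold tied to AMPA receptor traffic (chr16:31663443-31873356), measured 239.5, 202, 234, 217 and 261 CPM in female controls and 210.0, 206, 221, 236 and 244 CPM in stressed females. In males Dlg1 measured 202, 211, 193, 210.4 and 206 CPM in controls and 233, 239, 237, 223 and 230.3 CPM in stressed mice, again without overlap (edgeR log2 fold change 0.18, SE 0.06, adjusted p 0.138). All 4 Dlg genes had higher means in stressed than in control males, with log2 fold changes of 0.10 to 0.21 and an unadjusted p under 0.05 each (8.71% of all genes in that direction), and 0 of 4 passed over all genes. In females the 4 log2 fold changes ran from -0.05 to 0.06.

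Dlgap3, which encodes a linker between Dlg and Shank proteins that is known for its high level in striatum and for the overgrooming of mice that lack it (chr4:127168305-127237022), varied widely. Female controls measured 325, 266, 193, 341 and 323 CPM and stressed females 250.4, 205, 302, 352 and 353 CPM. Dlgap3 in male controls was at 187, 225, 185, 204 and 209.5 CPM and in stressed males at 269, 306, 329.9, 262 and 218 CPM. Female control 3, at 193 CPM, lay among the male controls, and stressed male 5, at 218 CPM, below male control 2, so that neither pair of groups was separate. The male level in controls was lower (edgeR log2 fold change -0.51, SE 0.15, adjusted p 0.101) and the mean of stressed males was higher than that of male controls (edgeR log2 fold change 0.45, SE 0.15, adjusted p 0.135). DESeq2 called the first (adjusted p 0.0305), as did edgeR on the control groups alone (0.0295), with the oligodendrocyte score (0.0422) and without female control 3 (-0.63, adjusted p 0.0245). The second was called by edgeR on the male groups alone (adjusted p 0.0261) and not by DESeq2 (0.0630). Dlgap2 had means of 79.4 ± 11.8 CPM in female controls, 59.4 ± 2.53 CPM in male controls, against 73.4 ± 10.1 CPM after stress in males, and Dlgap1 had log2 fold changes of -0.05 and 0.04 for stress in females and males.

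Shank3, the Shank scaffold most abundant in striatum and a gene whose loss causes Phelan-McDermid syndrome (chr15:89493013-89560261), measured 330.3, 286, 213, 318 and 311 CPM in female controls and 275, 248, 303, 353 and 363 CPM in stressed females. Shank3 in males measured 229, 262, 224, 232 and 226 CPM in controls and 306, 333, 364, 292 and 253 CPM in stressed mice. Only stressed male 5 (253 CPM) overlapped the male controls, and of these only control 2 (262 CPM) lay above it. The stress difference in males had the smallest p of the 44 (edgeR log2 fold change 0.40, SE 0.11, adjusted p 0.105); DESeq2 called it (adjusted p 0.0374), as did edgeR on the male groups alone (0.0261) and, just, without stressed male 5 (0.04999). In females it was 0.09 (SE 0.11), and the interaction was 0.32 (SE 0.16, edgeR adjusted p 0.496).

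Shank1, which is most abundant in cortex and hippocampus (chr7:44308916-44360094), measured 284, 302, 252, 256 and 254 CPM in female controls and 256, 306, 243, 292 and 280.3 CPM in stressed females. Shank1 in males went from 299.7, 254, 309.9, 296 and 259 CPM in controls to 285, 245, 221, 229.8 and 249.6 CPM in stressed mice. Its stress log2 fold change in males had the opposite sign to that of Shank3 (-0.21, SE 0.08, edgeR adjusted p 0.193), the groups overlapping, and the male minus female log2 fold change in stressed mice was -0.17 (edgeR adjusted p 0.681). For Shank2 the stress log2 fold change was 0.11 in females and -0.002 in males.

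Homer1 (chr13:93303757-93405129) produces both the long scaffold and a short form induced by neuronal activity, which gene counts do not separate. Homer1 measured 214, 142, 124, 169 and 202 CPM in female controls and 140.1, 114, 156, 172 and 196 CPM in stressed females. Homer1 in males measured 135, 147, 137, 143 and 122 CPM in controls and 156, 162, 215, 163 and 167 CPM in stressed mice. Male groups did not overlap, and stressed male 3, at 215 CPM, stood apart from the other 4 (edgeR log2 fold change 0.34, SE 0.14, adjusted p 0.227); edgeR called it on the male groups alone. The interaction was 0.46 (SE 0.19, edgeR adjusted p 0.423). Homer2 and Homer3 had log2 fold changes of -0.07 and 0.14 for stress in males.

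Across libraries, many of the 44 genes moved with the marker genes of striatal projection neurons, which lie next to this region and share many genes with it. The 16 markers, all in the table and none among the 44, summed to between 2805 and 5114 CPM in female controls and between 2764 and 5744 CPM in stressed females. In males the sums lay between 2643 and 3325 CPM in controls and between 3783 and 5786 CPM after stress. The stressed males did not overlap the male controls, and both female groups overlapped both male groups. The mean sum was 4229 CPM in female controls and 2848 CPM in male controls. By mean log2 CPM of the markers, centred on 0, these control groups overlapped through female control 3 alone (-0.438). The next lowest female control was at -0.027, above the highest male control at -0.175. In bulk tissue, more cells of a type and more RNA per cell cannot be told apart, nor can striatal cells and bed nucleus cells that express the same genes.

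**Figure D4:**
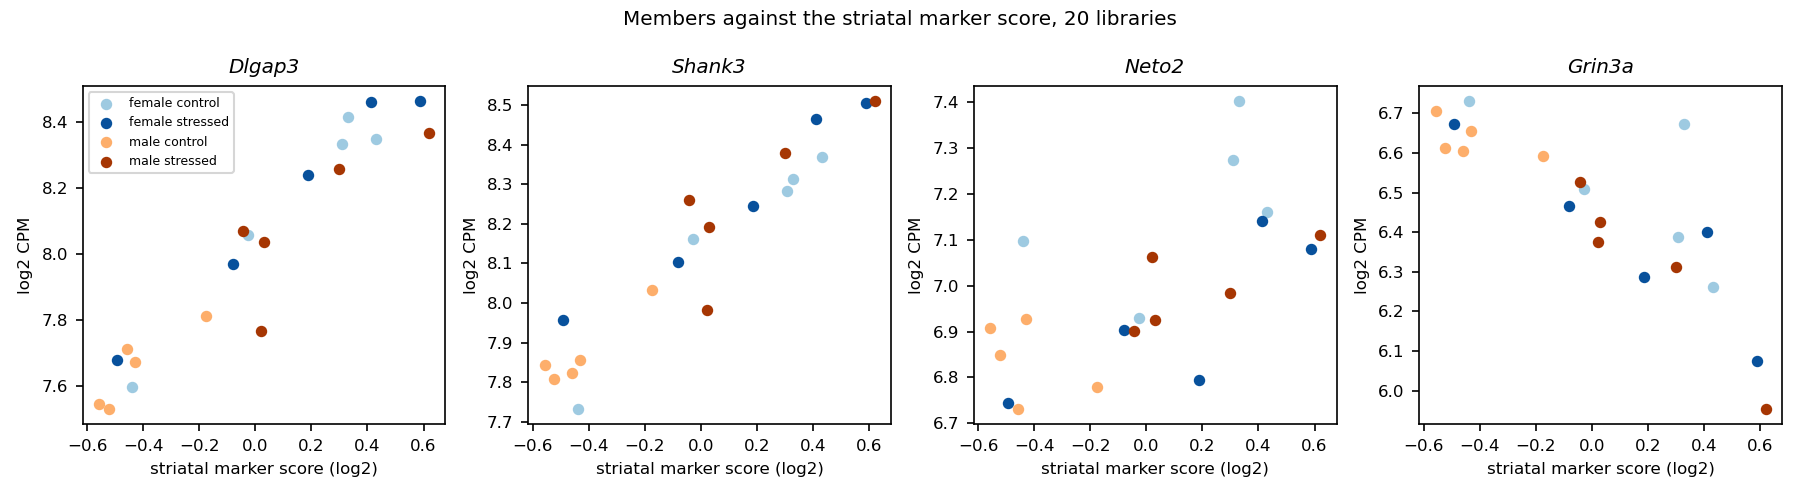
Log2 CPM of 4 genes against the striatal marker score (mean log2 CPM of 16 markers, centred on 0), 1 point per library, coloured by group. Dlgap3 and Shank3 rise along nearly 1 line in all 4 groups, Neto2 rises with more scatter, and Grin3a falls.

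The score is the mean log2 CPM of the markers, centred on 0. Over the 20 libraries it correlated with 25 of the 44 genes, 20 positively and 5 negatively, at an adjusted p under 0.05. The test was a two-sided permutation test, adjusted over 12972 genes. Of these 12972, all genes outside the marker list, 18.5% passed, 1396 positively and 1010 negatively. The median size of r was 0.654 over the 44 and 0.297 over all genes. The highest values belonged to Dlgap3 (r 0.959, rho 0.946), Shank3 (r 0.955, rho 0.934), Grm4 (r 0.94, rho 0.922), Dlgap2 (r 0.913, rho 0.893) and Homer1 (r 0.899, rho 0.935). Each had a permutation p of 1e-05, the smallest that the resamples can give, for r and for rho. The lowest belonged to Grin3a (r -0.835, rho -0.792), Grik1 (r -0.801, rho -0.761) and Grm8 (r -0.781, rho -0.773), with permutation p of 1e-05, 2e-05 and 2e-05 for r. Without stressed female 5 and stressed male 3, the 2 libraries farthest from the median score, r was 0.96 for Dlgap3, 0.94 for Shank3, -0.776 for Grin3a and -0.729 for Grik1.

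**Figure D5:**
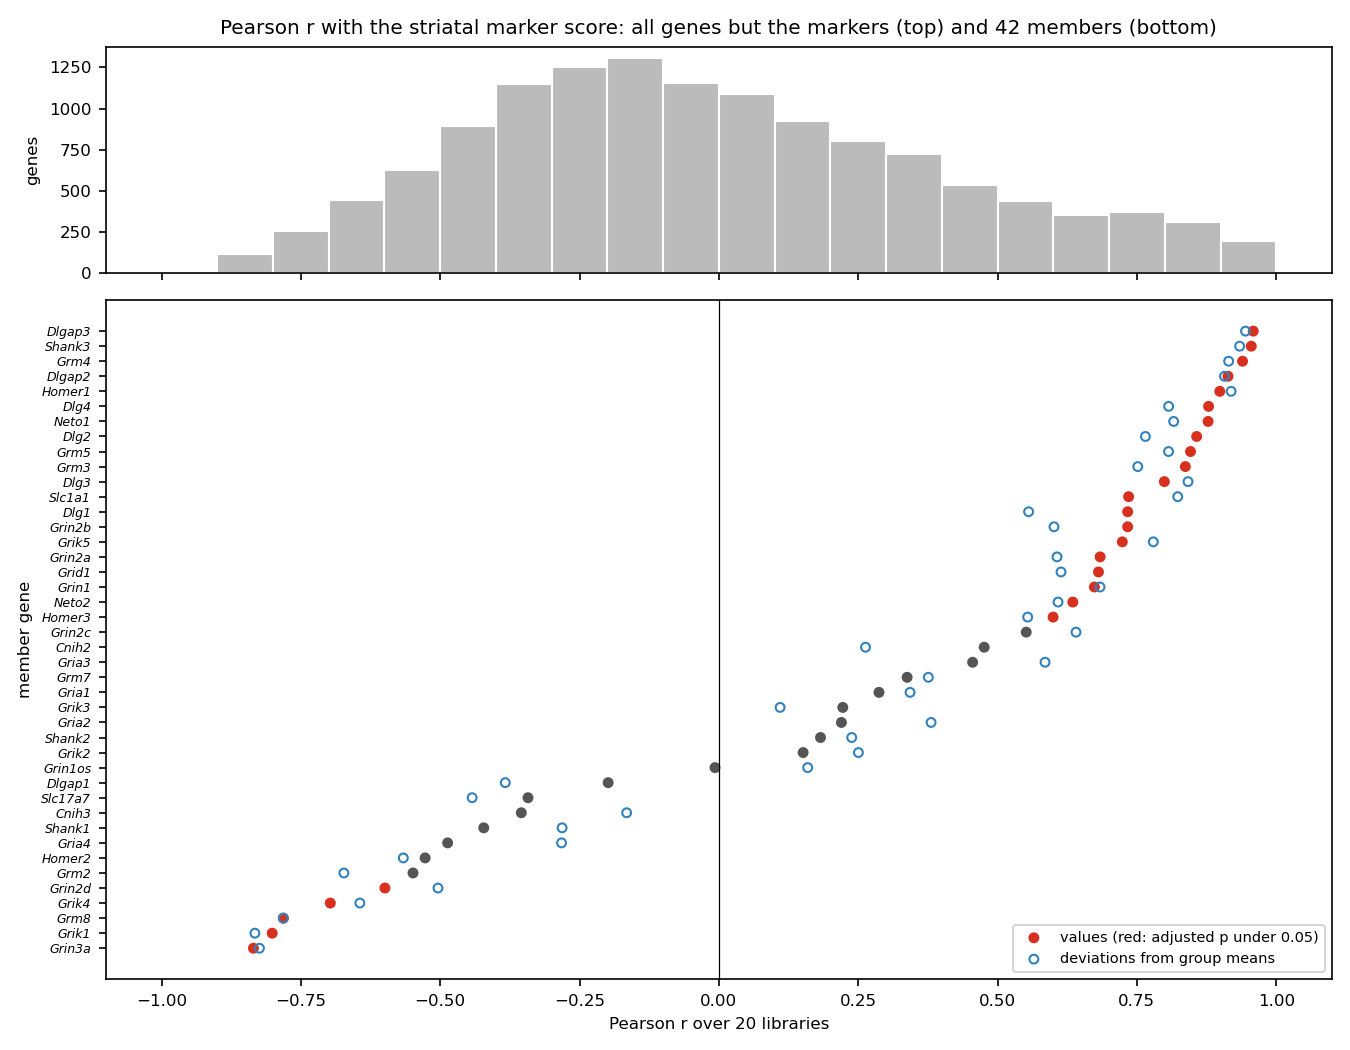
Pearson r with the striatal marker score: number of genes per 0.1 of r over 12972 genes (top), and 42 of the 44 genes (bottom) from their values (filled, red where the adjusted p is under 0.05) and from deviations from the group means (open). The 5 highest lie near or above 0.9 in both, and Grin3a, Grik1 and Grm8 lie near -0.8 in both.

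The relation was also present within groups: from deviations from the group means, 17 of the 44 genes passed (14 positive, 3 negative). Of all 12972 genes 10.7% did, 871 positively and 520 negatively. Within groups r was 0.945 for Dlgap3, 0.934 for Shank3 and -0.824 for Grin3a. Families did not follow it as units. Among scaffolds Dlgap3 and Dlgap2 were strongly positive and Dlgap1 was not (r -0.199), and Shank3 was positive, Shank2 near 0 (r 0.182) and Shank1 on the negative side (r -0.422, adjusted p 0.196). Among kainate subunits Grik5 (r 0.724) and Grik1 stood at opposite ends. The AMPA genes Gria1 (r 0.287), Gria2 (r 0.22), Gria3 (r 0.455) and Gria4 (r -0.487) did not pass. Neto2 had an r of 0.635 (adjusted p 0.0185) over all libraries and of 0.609 (adjusted p 0.140) from deviations from the group means, where it did not pass. Slc1a1 passed in both, with an r of 0.735 and 0.823.

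When the edgeR model took the striatal score as a covariate, the male stress log2 fold changes were smaller in size: Shank3 from 0.40 to 0.03, Dlg2 from 0.21 to 0.07, Grm3 from 0.26 to 0.05 and Dlgap3 from 0.45 to -0.05. In that fit the genes of the 44 with an unadjusted p under 0.05 numbered 0 for stress in males (6.33% of all genes) and 4 for sex in controls (12.6%), against 18 and 15 without the score. They numbered 6 for stress in females (10.1% of all genes), 6 for sex in stressed mice (10.4%) and 5 for the interaction (11.6%), against 3, 2 and 11. The sex difference of Dlgap3 in controls went from -0.51 to -0.05 and that of Grm3 from -0.27 to -0.09. The number called at an adjusted p under 0.05 stayed at 0 in all 5 contrasts. Since the score itself differs between the male groups, what part of a difference belongs to stress and what part to the score cannot be told apart here. The mean score also differed between the control groups, at 0.121 in females and -0.429 in males, with overlap through female control 3 alone. The parts of sex and of the score in the control differences can therefore not be told apart either.

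Among 46 other genes of the glutamate synapse, all of them in the table, the main edgeR fit called 1 in 1 contrast. This was sex in controls, where 0.747% of all genes were called. Lrrtm1, a postsynaptic adhesion protein that binds neurexin, was lower in control males (51.5 ± 4.08 against 65.0 ± 4.90 CPM, SD, n = 5). Its edgeR log2 fold change was -0.36 (SE 0.08, adjusted p 0.0493), and the groups did not overlap. It was also called with the DESeq2 Wald test, the filter at 10 CPM, the robust fit, the control groups alone and the oligodendrocyte score. It was not called with DESeq2 size factors, limma-voom, the replicate block or the striatal score as a covariate, and of the 10 fits that left out 1 control library it was called in 1, without female control 3. For stress in males the 3 smallest p-values were those of Slc1a6, a glutamate uptake transporter (edgeR log2 fold change -0.55, SE 0.14, adjusted p 0.0871), Gpr158, a receptor of the class that also holds the metabotropic glutamate receptors (edgeR log2 fold change 0.36, SE 0.10, adjusted p 0.103), and Camk2a, the calcium-dependent kinase of the postsynaptic density (edgeR log2 fold change 0.25, SE 0.07, adjusted p 0.119). For stress in females they were those of Grip1, a scaffold that binds AMPA receptor tails (edgeR log2 fold change 0.15, SE 0.06, adjusted p 0.637), Cacng7 and Frrs1l. For the interaction they were Frrs1l, an AMPA receptor assembly protein (edgeR log2 fold change 0.28, SE 0.08, adjusted p 0.295), the astrocyte transporter gene Slc1a2 and Nlgn1, and for sex in stressed mice Grip1 (edgeR log2 fold change -0.21, SE 0.06, adjusted p 0.594), Frrs1l and Shisa7. An unadjusted p under 0.05 was found for 16 higher (8.71% of all genes) and 3 lower (6.76%) of the 46 for stress in males. The sex contrast in controls had 1 higher (7.08%) and 16 lower (8.17%). DESeq2 called 2 of the 46 for stress in males (Camk2a and Gpr158), against 1.84% of all genes, and 6 for sex in controls, against 1.91%. With the male groups alone edgeR called 7 for stress in males, among them Slc1a6, Gpr158 and Camk2a, against 2.33% of all genes. With the control groups alone it called 6 for sex in controls, against 2.34%.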

How the data were processed

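RNA of the anterodorsal bed nucleus was measured in 20 libraries, 5 per group. The authors deposited whole-number counts per gene symbol, without normalization. The lowest total of a gene over the 20 libraries was 1002 counts, and the lowest mean 2.67 CPM. Shares, medians and percentiles over all genes therefore refer to a table without genes of lower count. The submitters' processing notes name STAR, featureCounts and mm10; versions, annotation and strand setting are not given in the sources used here. Library totals ran from 2707881 to 33595388 counts.

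For the tests, edgeR 4.0.16 (R 4.3.3) was fitted to the counts of all 12988 genes (TMM normalization, 1 mean per group, quasi-likelihood F test), after filterByExpr, which removed 0 genes. Standard errors were the log2 fold change over the square root of F. Two-sided p-values received Benjamini-Hochberg adjustment over all genes of a contrast, with 0.05 as the limit for a call. CPM used the TMM factors, CPM per kilobase used exon lengths from GENCODE M21, and log2 CPM used a prior count of 2. Alternatives included DESeq2 1.42.0, limma-voom (limma 3.58.1), covariates and leaving out libraries. Both test steps were also run on simulated data, whose genes varied independently apart from the effects put in. The simulation for edgeR held no difference shared by many genes, such as that of the striatal score, and so does not cover that case.

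The members and lists were chosen with earlier results of these data known. Library values are given for the 4 members with the smallest p in each contrast, since 0 were called, and for the most abundant member of each role; 2 genes of the 44 stay in the counts but are not reported here. Correlation p-values (100000 resamples) were adjusted over the 12972 genes outside the marker list, not over the members alone as planned. The labels do not say whether equal replicate numbers pair libraries, and the main fit did not pair them. Of same-number pairs, 5 of 30 correlated above 0.1 in their deviations from the group means.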

Additional observations from a re-analysis of the deposited data

Results flagged for a closer look

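In 12 of 176 groups of 5 libraries, 1 library stood apart from the other 4 by more than Dixon's 95% limit; chance gives about 1 in 20 groups. Among receptor genes, Grm2 was at 18.3 CPM in female stressed 2, where the other 4 reached 8.81 CPM, and Grm3 at 102 CPM in male control 5, above 92.6 CPM in the next. Low values were those of Grm7 in male control 5 (66.0 CPM, next 76.0), Grm8 in male control 2 (19.5 CPM, next 22.6), Grik2 in female control 4 (145 CPM, next 163), Grik4 in female stressed 5 (16.8 CPM, next 21.0) and Grik5 in female control 3 (166 CPM, next 197). Gria3 was high in female control 1 (242 CPM, next 221). Among auxiliary and scaffold genes, Cnih3 was low in male control 3 (28.4 CPM, next 32.8) and Homer3 in female control 3 (4.27 CPM, next 5.89). Homer1 was high in male stressed 3 (215 CPM, next 167), the library with the highest striatal score of its group, and Shank3 in male control 2 (262 CPM, next 232), the library with the highest striatal score of the male controls.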

How the results depend on the processing

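Of the 44 genes, the number called stayed at 0 for stress in females, sex in stressed mice and the interaction under every alternative run. For stress in males it was 2 with DESeq2 (Dlg2 and Shank3), 5 with the male groups alone (Dlg2, Dlgap3, Grm3, Homer1 and Shank3), and 0 to 1 when 1 library was left out (Shank3, without male stressed 5). For sex in controls it was 2 with DESeq2 (Dlgap3 and Neto2), 5 with the control groups alone (Dlgap2, Dlgap3, Grin2b, Grm3 and Neto2), 3 with the oligodendrocyte marker score as a covariate (Dlgap3, Grm4 and Neto2), and 0 to 4 when 1 library was left out. The 4 (Dlgap3, Grm4, Neto2 and Shank3) came without female control 3, and Neto2 alone was called without female control 2. Of all genes, 1.84% were called for stress in males with DESeq2, 2.33% with the male groups alone and 0.993% without male stressed 5. For sex in controls the shares were 1.91% with DESeq2, 2.34% with the control groups alone and 2.39% with the oligodendrocyte score. Without female control 3 the share was 1.65%, and without female control 2 it was 0.608%. The cause of these differences between fits was not tested. The log2 fold change of Dlgap3 for stress in males was -0.0472 with the striatal score as a covariate, against 0.45 without it. With the replicate block, 0 of the 44 were called in each contrast. Whether equal numbers share a batch is not given. The closest match of a library among the 5 of another group carried its own number in 4 of 60 cases.

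Over all genes, calls for stress in males numbered 1, against 239 with DESeq2, 303 with the male groups alone, 3 with the oligodendrocyte score and 0 to 129 when 1 library was left out (129 without male stressed 5). For sex in controls they numbered 97, against 248 with DESeq2, 304 with the control groups alone, 311 with the oligodendrocyte score, 63 with limma-voom, 48 with the replicate block and 32 to 214 when 1 library was left out. For the interaction they numbered 0, against 22 with DESeq2, 14 with the oligodendrocyte score and 0 to 4 when 1 library was left out. The number of the 44 that correlated with the striatal score was 23 to 27 when 1 library was left out, where 14.9% to 19.7% of all genes did. Depth limits the scarce genes: Slc17a7 had 6 counts in the shallowest library.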
